A study of Homo sapiens with 6 samples.

Results

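Collagens are secreted or membrane proteins built of 3 chains that wind into a triple helix, and they make up much of the extracellular matrix. The 44 genes described here are all rows of the count table whose gene ID maps to a protein-coding collagen chain symbol, out of 58051 rows. They were counted in A375 cells, an established human melanoma line. The 3 Vehicle libraries came from cells starved for 2 h and then given 4 mM HCl with 1 mg/mL BSA for 2 h, and the 3 TGFB1 libraries from cells starved alike and then given 10 ng/mL of recombinant human TGFB1 for 2 h. Both groups are the same cell line, no gene was altered in either, and the series' design text calls the libraries technical triplicates, so p-values measure only the spread between these libraries. The data are bulk RNA counts, in which fewer cells of a type and less RNA per cell cannot be told apart.

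The genes fall into classes by what their proteins assemble into. There were 11 chains of fibrillar collagens, which form the striated fibrils of connective tissue, 6 chains of type IV collagen, the sheet of basement membranes, 3 short chain network collagens, 5 chains of the beaded filament type VI, and 10 FACIT chains, which sit on the surface of fibrils. A further 4 genes encode transmembrane collagens, 2 encode multiplexins, which carry sugar chains in basement membrane zones, and 2 belong to none of these. COL7A1 alone encodes the anchoring fibril collagen, which ties the epidermal basement membrane to the dermis and whose loss causes a blistering skin disease. TGF-beta is best known for raising collagen expression in fibroblasts, where type I collagen is the main product. Binding of the ligand to its receptors activates SMAD proteins, which enter the nucleus and act on target genes.

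COL7A1 was the single collagen gene to pass the threshold of the test, rising 2.45-fold within 2 h of TGFB1. Of the 44 genes, 30 had enough counts to be tested, 1 was higher and 0 were lower by edgeR's quasi-likelihood F-test, with p-values adjusted by Benjamini-Hochberg over 16690 genes and a threshold of 0.05. DESeq2 and limma-voom also called COL7A1 and no other member. That is 3.33% of the tested members, against 3.31% of all tested genes, of which 2.43% were higher and 0.887% lower. The count of calls among collagen genes was therefore near that of any tested gene. The median log2 fold change of the 30 members was 0.03, and that of all tested genes was -0.0067.

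The sequence upstream of COL7A1 is shown because this gene passed the threshold. It is the 250 bases before the RefSeq start (GRCh38.p14, chr3:48595330-48595579, minus strand), written 5′ to 3′. Capitals mark GTCTG, the reverse complement of the SMAD-binding box CAGAC, and matches on either strand to GGGCGG, the GC box bound by SP1.

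COL7A1 promoter: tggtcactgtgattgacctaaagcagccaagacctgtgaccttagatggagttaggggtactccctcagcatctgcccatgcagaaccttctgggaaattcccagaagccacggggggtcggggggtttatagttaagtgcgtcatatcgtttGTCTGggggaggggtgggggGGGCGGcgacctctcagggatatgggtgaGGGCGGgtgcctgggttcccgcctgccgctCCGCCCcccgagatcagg

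The CAGAC match spans bases -97 to -93 before the start, and the GGGCGG matches span -77 to -72, -48 to -43 and -18 to -13. Bases further upstream were not searched, and binding at these matches was not tested. CAGAC on either strand occurs in 37.8% of the 27305 upstream windows of this length in the table and in 11 of the 32 collagen windows found there (34.4%), so its presence describes COL7A1 without setting it apart. GGGCGG occurs in 42.3% of all windows and in 18 of the 32 collagen windows. The AP-1 motif TGANTCA occurs in 6.60% of all windows and the palindrome GTCTAGAC in 0.176%, and neither is in the COL7A1 window or in any of the 32. The TATA box sequence TATAAA occurs in 11.1% of all windows and in 5 of the 32, searched on both strands. In the COL7A1 window its match is on the strand opposite to the printed one and is left in lower case.

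COL7A1 (ENSG00000114270) lies on chromosome 3 at 48564073 to 48595267, minus strand, in GENCODE 29 on GRCh38. Its counts were 83, 110 and 119 in Vehicle replicates 1, 2 and 3 and 286, 298 and 269 in TGFB1 replicates 1, 2 and 3. Scaled to TMM library sizes as CPM these were 3.40, 3.61 and 3.42 against 8.71, 8.61 and 8.26. Every TGFB1 library stood above every Vehicle library, and the spread within each group was small beside the distance between them. The means were 3.48 ± 0.120 CPM and 8.53 ± 0.234 CPM (SD, n = 3 each). The log2 fold change was 1.29 ± 0.15 (SE, adjusted p = 2.27e-07 by edgeR), with a 95% fold interval of 1.97-fold to 3.04-fold. By size of change it ranked 70th among the 405 genes that rose. SMAD7, the feedback inhibitor used to check the treatment, rose 2.70 on the log2 scale from 9.29 ± 1.74 CPM to 61.1 ± 3.49 CPM (SD, n = 3 each).

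**Figure D1:**
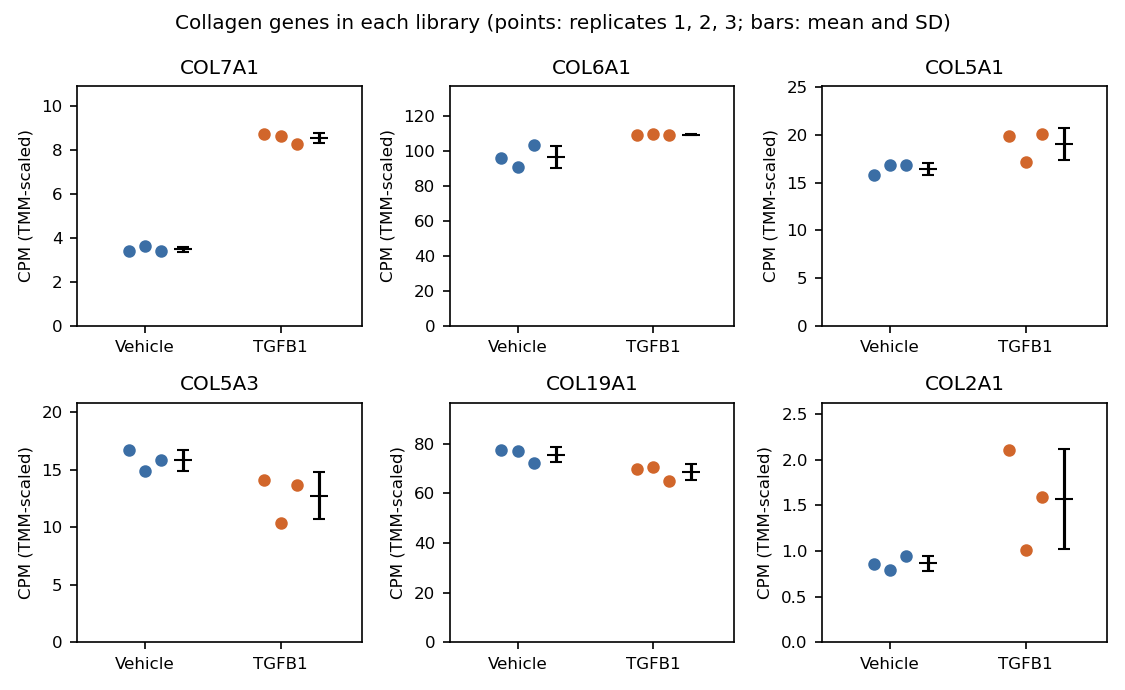
CPM of 6 collagen genes on linear axes from 0, with a point for each library (replicates 1, 2 and 3 from left to right) and the mean with its SD beside the points. COL7A1 moved from between 3.40 and 3.61 CPM to between 8.26 and 8.71 CPM. The other 5 had smaller fold changes, though not all had smaller steps in CPM, and did not pass the test.

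In skin, COL7A1 is made by keratinocytes and fibroblasts, so markers of both were read beside it. Of 6 keratinocyte markers 4 were under 1 CPM, among them KRT5, with means of 0.259 and 0.131 CPM in the Vehicle and TGFB1 groups, and TP63, with 0.0383 CPM and 0 counts. The list's summed level was 51.3 to 69.7 CPM in Vehicle and 66.0 to 69.5 CPM with TGFB1, most of it from KRT10 and KRT14. The 6 fibroblast markers summed to 19.8 to 23.8 CPM in Vehicle and 18.0 to 19.1 CPM with TGFB1. The 5 endothelial markers summed to 13.4 to 19.0 and 15.5 to 16.8 CPM, and the 5 immune markers to 6.23 to 7.79 and 5.71 to 6.67 CPM. In the endothelial and in the immune list, 4 of the 5 genes were under 1 CPM. None of the tested members of these 4 lists passed the edgeR test. DESeq2 and limma-voom called 0 of them as well. LUM was the 1 with an unadjusted p under 0.05, at 9.70 ± 0.836 and 7.76 ± 0.821 CPM (SD, n = 3 each). Of 8 melanocyte lineage genes, MITF stood at 62.7 ± 3.02 CPM and S100B at 58.9 ± 5.74 CPM in Vehicle (SD, n = 3 each). In that list 5 genes were under 1 CPM, so the labelled lineage is carried here by few of its markers. SOX10 was listed at 0 counts in all 6 libraries. The annotation and strand setting of the counting are not given, so this 0 is uncertain and does not show that SOX10 is absent. MITF fell (log2 fold change -0.23, adjusted p = 0.0355), which limma-voom did not call, and the melanocyte list summed to 121.1 to 137.0 CPM in Vehicle and 110.7 to 116.6 CPM with TGFB1. Its part in the collagen values was not tested.

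The collagen profile of these cells was that of a few chains. Levels are compared between genes as RPKM, which is CPM per kilobase of annotated exons. In Vehicle the highest were COL5A2, a type V chain found in the core of fibrils, at 38.5 ± 2.56 RPKM, and COL9A3, a chain of the cartilage FACIT type IX, at 20.99 ± 0.410 RPKM (SD, n = 3 each). COL4A2 at 18.1 ± 0.0280 RPKM and COL6A1 at 18.1 ± 1.19 RPKM did not differ beyond their spread. COL4A1 followed at 14.2 ± 0.257 RPKM. COL19A1 at 8.87 ± 0.343 RPKM and COL6A2 at 8.83 ± 0.431 RPKM again could not be separated, and COL12A1 came next at 4.24 ± 0.409 RPKM (SD, n = 3 each). The 8 highest chains held 89.8% of the summed collagen RPKM over the 6 libraries. By the mean over the 6 libraries COL7A1 stood 17th of the 44. Its level was 0.314 ± 0.0108 RPKM in Vehicle and 0.770 ± 0.0211 RPKM with TGFB1 (SD, n = 3 each), which is 0.214% and 0.516% of the collagen total.

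**Figure D2:**
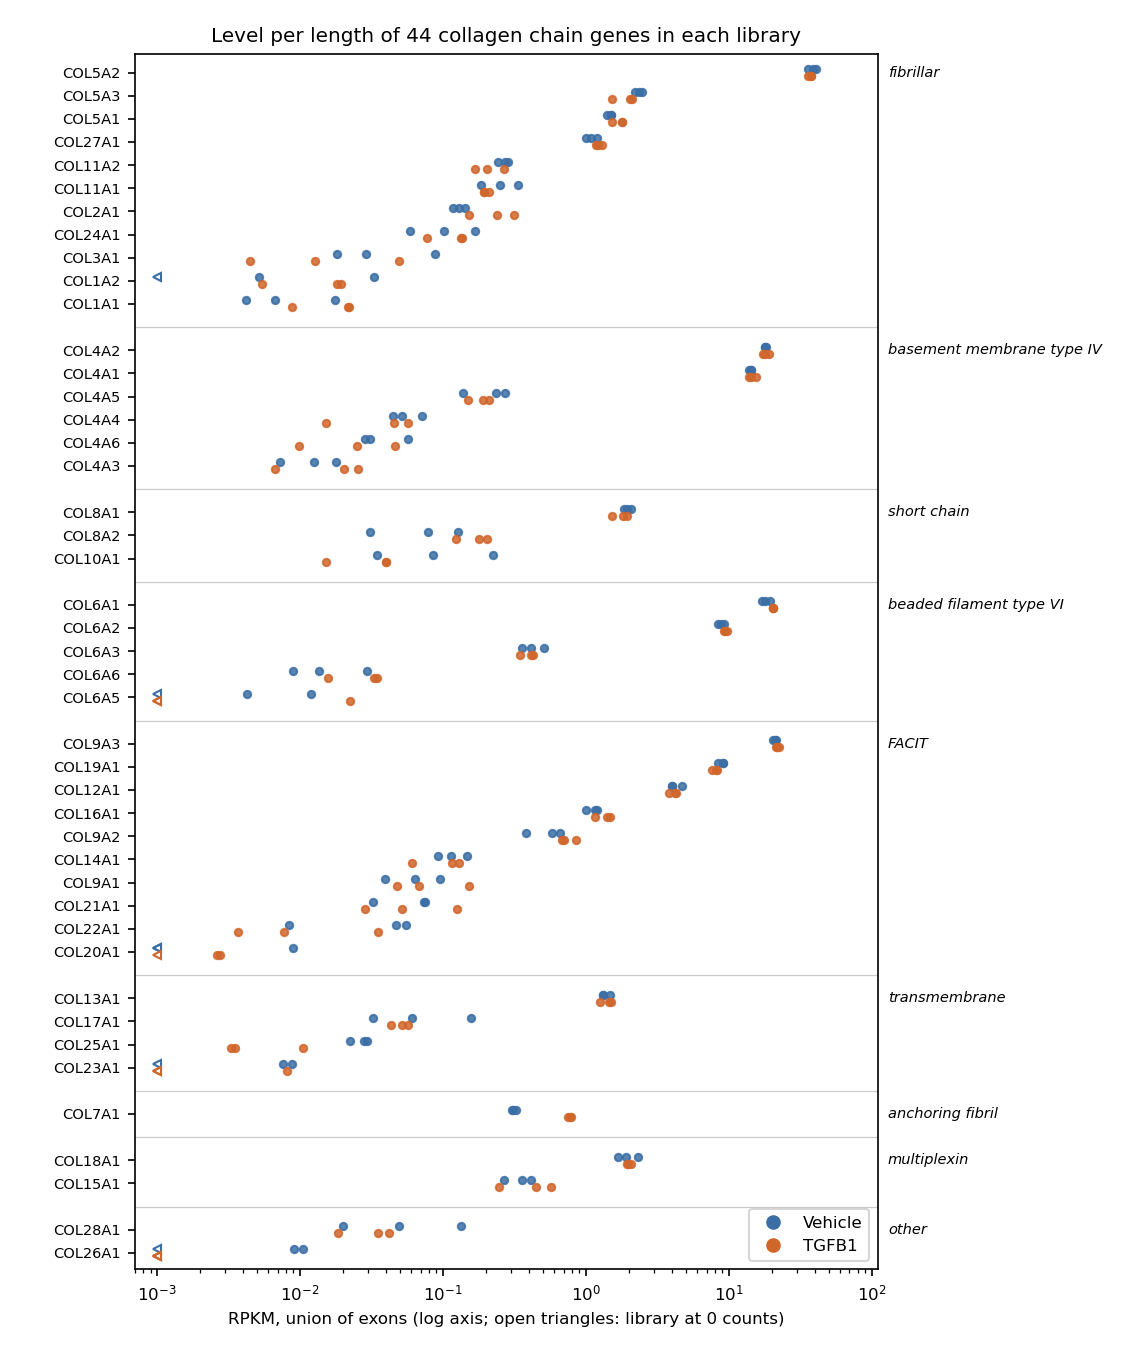
RPKM of all 44 collagen genes on a log axis, by class, with a point for each library. Open triangles at the left edge mark libraries at 0 counts. COL5A2 is highest, 8 chains hold 89.8% of the total, and COL7A1 is the gene whose groups stand clearly apart at a level where counts are ample.

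The order rests on the length given to each gene. With the longest annotated transcript in place of all exons, COL4A2 came first at 53.7 RPKM, followed by COL9A3 at 40.7 RPKM and COL5A2 at 40.5 RPKM. The same 8 chains were the highest by both lengths. The summed RPKM of all 44 was 144.9 to 149.5 in the Vehicle libraries and 147.1 to 151.1 in the TGFB1 libraries, ranges that overlap.

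Among the fibrillar collagens, 0 of 8 tested genes passed the edgeR test. At an unadjusted p under 0.05 there were 3 (37.5%), against 12.3% of all tested genes. COL5A2 (ENSG00000204262) held 304.8, 288.9 and 266.8 CPM in Vehicle replicates 1, 2 and 3 and 267.1, 282.7 and 280.2 CPM with TGFB1. The groups overlapped, and the interval of the fold change ran from 0.897 to 1.04, so a change of 1.5-fold lies outside it. COL5A3, the chain of type V with the most restricted expression, held 16.6, 14.9 and 15.8 CPM in Vehicle and 14.1, 10.4 and 13.7 CPM with TGFB1. Its TGFB1 libraries were all below its Vehicle libraries, and the log2 fold change was -0.31 ± 0.12 (SE, adjusted p = 0.179). COL5A1, the chain that pairs with COL5A2, held 15.7, 16.8 and 16.8 CPM in Vehicle and 19.9, 17.1 and 20.1 CPM with TGFB1, again with no overlap (log2 fold change 0.21 ± 0.10 SE, adjusted p = 0.382). COL2A1, the main collagen of cartilage, was low, at 0.859, 0.789 and 0.948 CPM against 2.101, 1.01 and 1.597 CPM, and its log2 fold change of 0.85 ± 0.35 (SE) did not pass (adjusted p = 0.273). COL11A1 and COL11A2, chains of a minor cartilage collagen, stood at 2.33 ± 0.686 and 1.81 ± 0.0858 CPM and at 1.80 ± 0.145 and 1.44 ± 0.348 CPM (SD, n = 3 each, adjusted p = 0.632 and 0.737). COL24A1 stood at 1.04 ± 0.522 and 1.11 ± 0.319 CPM (SD, n = 3 each, adjusted p = 0.963). COL27A1 stood at 15.3 ± 1.34 and 17.2 ± 0.878 CPM (SD, n = 3 each, adjusted p = 0.531).

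The chains of the main fibroblast collagens were nearly absent. COL1A1 had 1, 2 and 6 counts in Vehicle and 7, 3 and 7 with TGFB1, COL1A2 had 9, 0 and 2 against 2, 7 and 7, and COL3A1 had 3, 6 and 21 against 1, 3 and 11. All 3 genes fell under the filter on low counts and were not tested, and their groups overlapped. At this depth of 24713894 to 34895075 counts a library, a change in them was not detectable.

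Type IV collagen was abundant and its intervals were narrow. COL4A2 (ENSG00000134871) held 348.5, 348.8 and 349.6 CPM in Vehicle replicates 1, 2 and 3, a spread of 0.540 CPM (SD, n = 3), and 349.0, 335.6 and 366.6 CPM with TGFB1. COL4A1 held 211.9, 210.4 and 204.8 CPM against 212.6, 204.5 and 227.1 CPM. Neither passed (adjusted p = 0.984 and 0.849), the groups overlapped, and the fold intervals were 0.939 to 1.07 and 0.956 to 1.10. COL4A4, a chain of the kidney filter, was at the low end with 11, 22 and 18 counts against 15, 20 and 5 (adjusted p = 0.804, interval 0.324-fold to 1.53-fold). COL4A5 stood at 2.55 ± 0.820 and 2.17 ± 0.358 CPM (SD, n = 3 each), and COL4A3 and COL4A6 had at most 14 counts in any library and were not tested.

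COL4A1 and COL4A2 are transcribed head to head from starts 127 bases apart in RefSeq, and the stretch between the starts is shown because both chains held their level together. It spans chr13:110307158-110307283 (GRCh38.p14), plus strand, the strand of COL4A2, with the single GGGCGG in capitals. It holds no CAGAC on either strand.

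COL4A1-COL4A2 interval: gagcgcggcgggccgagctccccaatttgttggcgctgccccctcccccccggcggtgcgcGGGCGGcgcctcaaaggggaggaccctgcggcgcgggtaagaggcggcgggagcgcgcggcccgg

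The other type IV pairs are also head to head, with starts 419 bases apart for COL4A3 and COL4A4 and 380 bases apart for COL4A5 and COL4A6. The ratio of COL4A1 to COL4A2 in RPKM was 0.796, 0.790 and 0.767 in Vehicle and 0.797, 0.798 and 0.811 with TGFB1. The groups did not overlap, though the highest Vehicle and lowest TGFB1 ratios nearly touch. The size of this ratio rests on the length given to each gene. With the longest transcript as length, COL4A1 stood at 31.6 RPKM and COL4A2 at 53.7 RPKM in Vehicle.

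Type VI collagen forms beaded filaments around cells from its chains alpha1, alpha2 and alpha3. COL6A1 (ENSG00000142156) held 95.6, 90.7 and 103.3 CPM in Vehicle replicates 1, 2 and 3 and 108.8, 109.5 and 109.1 CPM with TGFB1. All TGFB1 libraries were above all Vehicle libraries, and Vehicle replicate 3 lay nearest to them. The log2 fold change was 0.18 ± 0.06 (SE), the adjusted p was 0.0916 and the interval 1.04-fold to 1.22-fold. Without Vehicle replicate 3 it passed (log2 fold change 0.23, adjusted p = 0.00835). COL6A2 held 47.3, 45.4 and 50.02 CPM against 52.2, 49.999 and 50.4 CPM and did not pass (adjusted p = 0.628). COL6A3 stood at 8.41 ± 1.49 and 7.78 ± 0.822 CPM (SD, n = 3 each). The ratio of COL6A1 to COL6A2 in RPKM was 2.04 ± 0.0345 in Vehicle and 2.16 ± 0.0549 with TGFB1 (SD, n = 3 each), with no overlap between the groups. Its size also rests on the length used. With the longest transcript as length, COL6A1 stood at 22.8 RPKM and COL6A2 at 13.7 RPKM in Vehicle. COL6A5 and COL6A6 had at most 11 counts in any library.

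**Figure D3:**
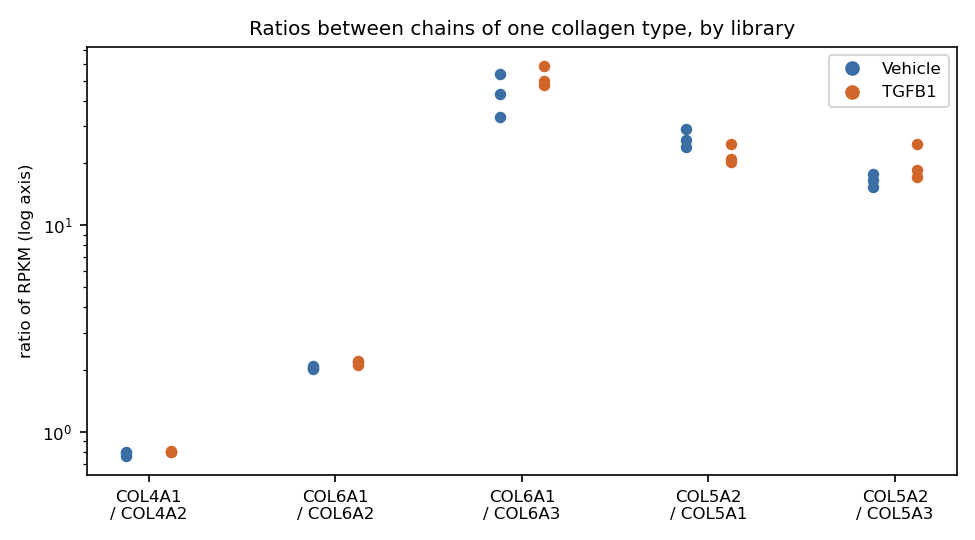
Ratio of RPKM between chains of the same collagen type on a log axis, with a point for each library. The size of each ratio rests on the length given to each gene. The ratio of COL6A1 to COL6A2 was 2.04 in Vehicle and 2.16 with TGFB1, and the ratio of COL5A2 to COL5A1 was 26.2 and 21.95, with overlap between the groups.

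Type V heterotrimers combine COL5A1 and COL5A2 chains, yet COL5A2 exceeded COL5A1 in RPKM by 29.1, 25.8 and 23.8 times in Vehicle and 20.1, 24.8 and 20.9 times with TGFB1. It exceeded COL5A3 by 16.5 ± 1.16 and 20.1 ± 4.00 times (SD, n = 3 each). COL9A3 exceeded COL9A2, its partner in type IX, by 41.0 ± 12.3 and 29.8 ± 3.81 times (SD, n = 3 each). In each of these ratios the groups overlapped, and their size again rests on the length given to each gene. For these type V and type IX pairs, transcripts of partner chains were far from equal in both groups.

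Among the short chain collagens, COL8A1, found in the membrane under the corneal endothelium and in vessel walls, held 19.5, 17.4 and 18.2 CPM in Vehicle and 17.1, 14.3 and 18.3 CPM with TGFB1 and did not pass (adjusted p = 0.632). COL8A2, its partner, had 9, 18 and 5 counts against 19, 33 and 27. Its log2 fold change of 1.11 ± 0.52 (SE) was near that of COL7A1 in size but rested on few counts, with overlap between the groups in CPM and an adjusted p of 0.378. It was 0.70 without Vehicle replicate 3 and 1.67 without Vehicle replicate 2. COL10A1, the collagen of growth plate cartilage, had 30 counts in Vehicle replicate 3 and 2 to 8 in the other libraries.

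FACIT collagens were well represented, with 8 of 10 genes tested and 0 past the threshold. At an unadjusted p under 0.05 there were 2 (25.0%), against 12.3% of all tested genes. COL9A3 (ENSG00000092758) held 103.4, 101.9 and 99.5 CPM in Vehicle replicates 1, 2 and 3 and 109.8, 104.3 and 105.7 CPM with TGFB1. The groups did not overlap, yet the step was small, and the log2 fold change was 0.07 ± 0.05 (SE, adjusted p = 0.679). COL19A1, a chain of basement membrane zones, held 77.2, 77.1 and 72.1 CPM against 69.9, 70.6 and 64.8 CPM, lower in every TGFB1 library (log2 fold change -0.14 ± 0.06 SE, adjusted p = 0.293). COL12A1, which decorates type I fibrils, stood at 52.9 ± 5.10 and 51.2 ± 2.93 CPM (SD, n = 3 each, adjusted p = 0.875). COL16A1 stood at 10.4 ± 0.923 and 12.5 ± 1.53 CPM (SD, n = 3 each, adjusted p = 0.355) and COL9A2 at 2.28 ± 0.603 and 3.14 ± 0.390 CPM (SD, n = 3 each, adjusted p = 0.42). COL9A1, COL14A1 and COL21A1 were tested at around 1 CPM or less, with adjusted p-values of 0.851, 0.919 and 0.95. COL20A1 and COL22A1 had at most 15 counts in any library and were not tested.

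Transmembrane collagens span the cell membrane and can be shed. COL13A1, found at adhesion sites, was the main one, at 7.77, 7.79 and 8.70 CPM in Vehicle and 8.59, 8.87 and 7.37 CPM with TGFB1 (adjusted p = 0.969). COL17A1, the hemidesmosome collagen of keratinocytes, had 27 counts in Vehicle replicate 1 and 8 to 14 in the other 5 libraries (adjusted p = 0.736). Its log2 fold change of -0.66 became 0.14 without Vehicle replicate 1. COL25A1 had 6, 6 and 9 counts in Vehicle and 1, 1 and 3 with TGFB1, with no overlap in CPM, but was too low to be tested. COL23A1 had 0 or 1 counts in every library.

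The multiplexin COL18A1, whose C-terminal fragment is endostatin, held 16.4, 14.3 and 19.9 CPM in Vehicle and 17.5, 17.0 and 16.5 CPM with TGFB1 (adjusted p = 0.99). It shares 16.4% of its exonic bases with SLC19A1 on the other strand, and the strand setting of the counting is not given in the sources used here, so its level is uncertain. COL15A1, the other multiplexin, held 2.37, 1.77 and 2.76 CPM against 3.78, 1.65 and 2.98 CPM (adjusted p = 0.764), with overlap. COL26A1 had 1 count in each of Vehicle replicates 2 and 3 and 0 in the other libraries. COL28A1 had 31 counts in Vehicle replicate 3 and 4 to 9 in the others.

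**Figure D4:**
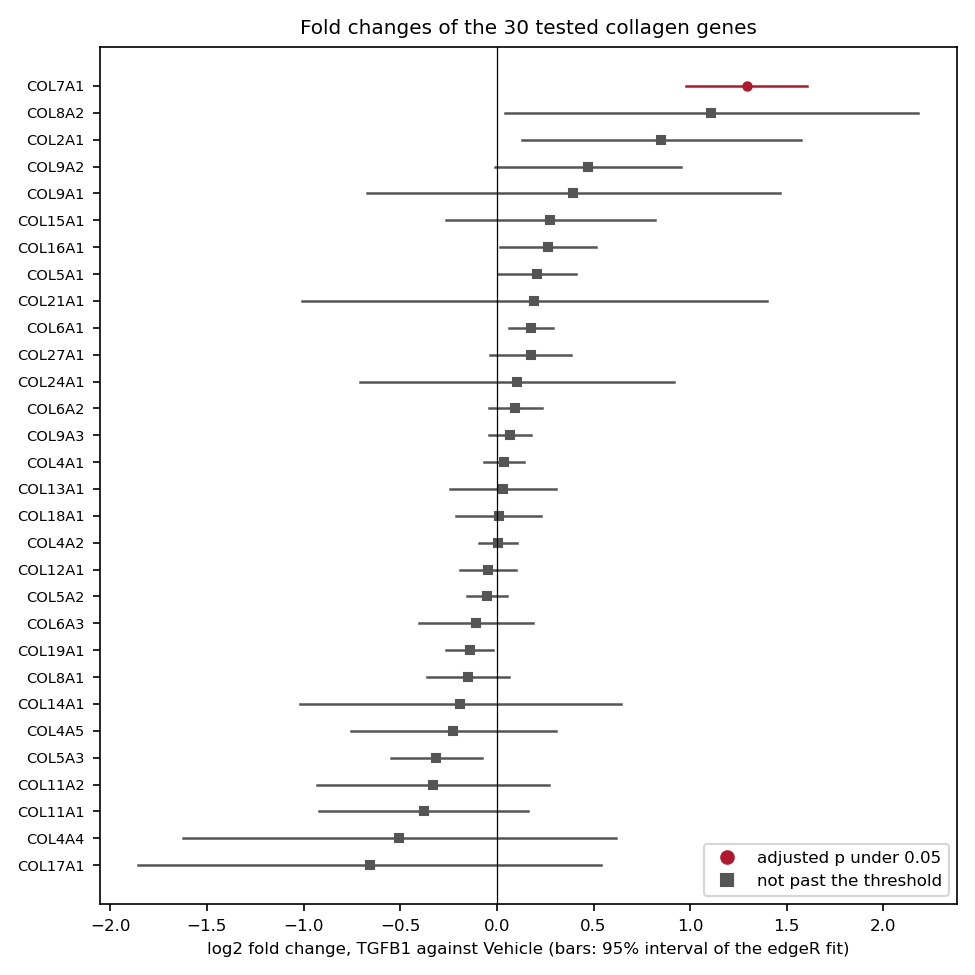
Log2 fold change of TGFB1 against Vehicle for the 30 tested collagen genes, with the 95% interval of the edgeR fit. COL7A1, at 1.29, is the only gene in red, past the adjusted p threshold, and the intervals of 16 genes lie within 1.5-fold in either direction.

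How firmly a change can be bounded differed between members. The 95% intervals of 16 of the 30 tested genes lay wholly within 1.5-fold in either direction, and those of 22 within 2-fold. The genes outside the narrower bound were COL7A1 and the members lowest in mean CPM, up to COL9A2 at 2.71 CPM over the 6 libraries. At an unadjusted p under 0.05 there were 8 members, 6 higher and 2 lower, which is 26.7% against 12.3% of all tested genes. For 8 members the groups did not overlap, again 6 higher and 2 lower (26.7%), against 16.4% of all tested genes, 8.96% higher and 7.49% lower. In 18 members the log2 fold change was above 0 and in 12 below it.

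**Figure D5:**
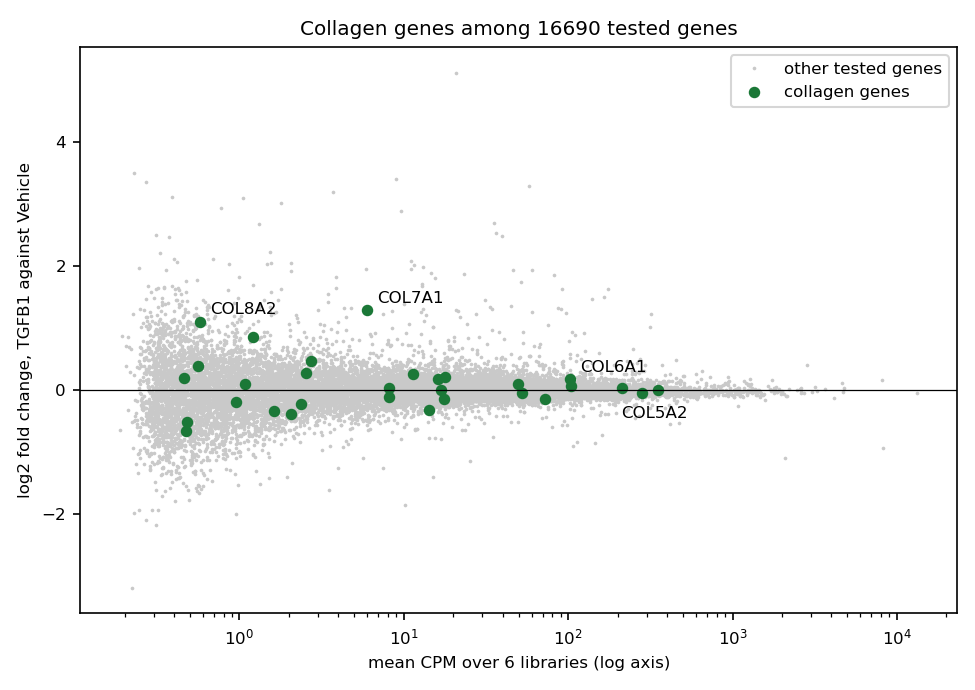
Log2 fold change against mean CPM (log axis) for all 16690 tested genes, with the 30 tested collagen genes in green. COL7A1 lies above the band of genes at its level, COL8A2 lies within the wide spread of genes under 1 CPM, and the abundant chains lie near 0.

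Vehicle replicate 3 held the most reads of the members too low to be tested. The 14 untested genes, which had 2 to 64 counts each over the 6 libraries, summed to 137 counts in it and to 43 to 76 in the other libraries. Much of that sum came from COL28A1, COL10A1 and COL3A1, with 31, 30 and 21 counts there, and 5 of the 14 genes had their highest CPM in this library. The tested members under 1 CPM went the other way, with their lowest sum in Vehicle replicate 3, at 2.61 CPM against 3.19 to 4.01 CPM. Vehicle replicate 3 also had the most genes with at least 1 count, 29097 against 27104 to 28146. COL7A1 kept its call without this library (log2 fold change 1.28, adjusted p = 1.65e-07).

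The genes that modify, process, bind and cleave collagen were read from lists chosen alongside the members. Prolyl and lysyl hydroxylases, chaperones and lysyl oxidases allow the helix to fold and the fibrils to be crosslinked. Of 21 tested genes of this list 0 passed the edgeR test, with a median log2 fold change of -0.01. At an unadjusted p under 0.05 there were 2 of the 21, against 12.3% of all tested genes, and DESeq2 and limma-voom called 0. The most abundant were CRTAP, a subunit of the prolyl 3-hydroxylase complex, at 343.3 ± 8.01 and 340.4 ± 6.60 CPM, and P4HB, the beta subunit of prolyl 4-hydroxylase, at 284.6 ± 22.9 and 322.1 ± 10.2 CPM (SD, n = 3 each). P4HB was higher in every TGFB1 library (log2 fold change 0.18 ± 0.05 SE, adjusted p = 0.0582) and passed without Vehicle replicate 3 (adjusted p = 0.00127), with no low-count filter (adjusted p = 0.0351) and with the replicate number as a block (adjusted p = 0.0186).

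Secretion and propeptide processing genes included 2 that rose of 13 tested, and 0 that fell, where 2.43% of all tested genes rose and 0.887% fell. At an unadjusted p under 0.05 there were 5 of the 13, against 12.3% of all tested genes. FURIN, a proprotein convertase that cleaves precursors in the secretory path, held 47.0, 44.9 and 51.8 CPM in Vehicle and 75.3, 62.3 and 72.3 CPM with TGFB1 (log2 fold change 0.55 ± 0.07 SE, adjusted p = 1.73e-06). PCOLCE, which enhances removal of the procollagen C-propeptide, held 41.1, 46.4 and 51.3 CPM against 63.1, 55.7 and 56.7 CPM (log2 fold change 0.34 ± 0.07 SE, adjusted p = 0.00433). For both genes every TGFB1 library was above every Vehicle library. PCOLCE shares 16.6% of its exonic bases with PCOLCE-AS1 on the other strand and is uncertain to that extent, and it lost its call without TGFB1 replicate 1 (adjusted p = 0.0925).

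Of 8 tested collagen receptors 1 rose and 0 fell, against the same 2.43% and 0.887%. At an unadjusted p under 0.05 there were 3, against the same 12.3%. DDR1, a receptor tyrosine kinase that binds collagen, held 56.1, 46.0 and 57.5 CPM in Vehicle and 65.5, 62.6 and 66.3 CPM with TGFB1 (log2 fold change 0.29 ± 0.07 SE, adjusted p = 0.0142). Its call was lost when Vehicle replicate 2 (adjusted p = 0.225), TGFB1 replicate 1 (0.0938) or 3 (0.0878) was left out, with log2 fold changes of 0.19, 0.28 and 0.27. Of 11 tested collagen cleaving proteases 0 passed the edgeR test, and the most abundant, the membrane metalloprotease gene MMP16 and the lysosomal protease gene CTSL, stood at 278.1 ± 23.7 and 276.0 ± 6.93 CPM and at 138.2 ± 5.40 and 134.7 ± 5.34 CPM (SD, n = 3 each). At an unadjusted p under 0.05 there were 4 of the proteases, against 12.3% of all tested genes. DESeq2 and limma-voom, which called 3.41% and 3.10% of all tested genes, each called MMP2, a gelatinase. MMP2 held 41.3, 42.7 and 54.0 CPM in Vehicle and 69.3, 54.7 and 58.3 CPM with TGFB1 (adjusted p = 0.0842 by edgeR). Of 9 tested partners of the anchoring zone 1 rose and 0 fell, again against 2.43% and 0.887%. At an unadjusted p under 0.05 there were 2, again against 12.3%. DESeq2 and limma-voom each called 2, against their 3.41% and 3.10%. The other gene they called was the fibronectin gene FN1, at 146.1, 176.9 and 170.2 CPM against 224.6, 180.8 and 195.9 CPM (adjusted p = 0.109 by edgeR). LAMB3, a chain of laminin-332, to which anchoring fibrils attach, held 23.9, 22.3 and 22.6 CPM in Vehicle and 29.8, 28.7 and 27.9 CPM with TGFB1 (log2 fold change 0.33 ± 0.08 SE, adjusted p = 0.0164). Its call was lost when Vehicle replicate 2 (adjusted p = 0.0933), TGFB1 replicate 1 (0.129) or 2 (0.052) was left out, while the log2 fold change was 0.31, 0.31 and 0.34. LAMA3, which encodes the alpha chain of that laminin, stood at 1.95 ± 0.278 and 1.94 ± 0.187 CPM (SD, n = 3 each).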

How the data were processed

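The authors deposited raw read counts per Ensembl gene ID for 6 libraries. They used cutadapt, TopHat2 2.1 and HTSeq on GRCh38, per the submitters' processing notes. Libraries were made after ribosomal RNA depletion per the labels' protocols, but the molecule field reads polyA RNA, so which RNA was selected is uncertain. The gene annotation used and how HTSeq treated strand are not given in the sources used. Depth was 24713894 to 34895075 counts a library. Rows were kept with filterByExpr (minimum count 10, minimum total 15), scaled by TMM and tested with edgeR 4.0.16 (R 4.3.3), robust quasi-likelihood, group as the sole term, Benjamini-Hochberg over all tested genes, threshold 0.05. The script was tested on simulated data. SE is the absolute log2 fold change over the square root of F, and intervals use the fit's degrees of freedom. RPKM is TMM-scaled CPM per kilobase of the union of GENCODE 29 exons. Upstream sequences are RefSeq's (GRCh38.p14), and 32 of the 44 genes matched an entry. Members, lists and motifs were chosen with earlier results of these data known. Full values are given for members past the threshold and, in each class, the 2 highest per length and the smallest p, and from each other list for up to 4 genes past the threshold or else the 2 most abundant. Further members are given so that all 44 are accounted for. Marker genes, LAMA3, MMP2 and FN1 were named after their values were seen. Alternatives were other scalings (DESeq2 size factors, upper-quartile, total counts) and low-count filters, DESeq2 1.42.0, limma-voom (limma 3.58.1), a replicate block, a threshold of 0.01, leaving out each library, and the longest transcript as length.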

Additional observations from a re-analysis of the deposited data

How the results depend on the processing

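COL7A1 was called under every alternative run, with log2 fold changes from 1.28 to 1.32. The count of collagen genes past the threshold was 1 under all of them, except without Vehicle replicate 3, where COL6A1 joined it and the count was 2, so the range over left-out libraries was 1 to 2. The count of all genes ran from 365 (without TGFB1 replicate 1) to 923 (without Vehicle replicate 3) over left-out libraries. No clear pairing of the libraries by replicate number was seen, which does not show that they were unpaired. Deviations of same-numbered libraries correlated at -0.0296, 0.0418 and 0.0076. Vehicle replicates 1 and 3 each correlated better with another number, and Vehicle replicate 2 best with its own. With a replicate block 601 genes were called, 1 of them a collagen gene, and COL7A1 had an adjusted p of 4.95e-06.

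Some log2 fold changes turned sign, none of them past the threshold and all near 0 except COL17A1 (-0.66), and the cause was not tested. With upper-quartile scaling COL4A2 was -0.0083 and COL18A1 -0.0046, and with no low-count filter MMP16 was 0.00037. Over left-out libraries COL4A2 ran from -0.027 to 0.039, COL4A1 from -0.0030 to 0.076, COL13A1 from -0.019 to 0.11, COL17A1 from -1.06 to 0.14, COL18A1 from -0.096 to 0.15, CRTAP from -0.029 to 0.0033 and MMP16 from -0.066 to 0.059. With a threshold of 0.01, DDR1 and LAMB3 were not called. Depth limits the 14 chains under the low-count filter: with no filter all 44 were tested, and COL7A1 alone was called.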

Other observations

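Antisense genes annotated within collagen loci, picked after their counts were seen, had more raw reads with TGFB1 at 3 loci. The counts are not scaled to depth, which was lowest in Vehicle replicate 1 and highest in TGFB1 replicate 2. Groups apart in counts can overlap once scaled, as those of COL4A2-AS1 do. COL5A1-AS1 had 0 counts in each Vehicle library, which allows up to 3 counts a library, and 6, 4 and 8 counts in TGFB1 replicates 1, 2 and 3. COL4A2-AS1 had 5, 4 and 6 counts in Vehicle and 16, 7 and 23 with TGFB1, and COL4A2-AS2 had 1, 0 and 1 against 4, 5 and 17. COL18A1-AS2 had 1, 0 and 1 counts against 2, 3 and 6, and COL18A1-AS1 had 1, 4 and 0 against 0, 2 and 1. All 5 fell under the low-count filter and were not tested, and as antisense genes counted with an unknown strand setting they are uncertain. The sense genes COL5A1 and COL4A2 had adjusted p-values of 0.382 and 0.984.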
